A study of Mus musculus with 8 samples.

Results

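Tyrobp, Lgals3, S100a8 and S100a9 are 4 genes of myeloid immune cells, and they are described here in mouse skeletal muscle that had lost its nerve. They are 4 of the 14860 genes measured. Each was found as the single probe set that carries its symbol alone in the array annotation. The genes were chosen by their denervated minus innervated values and by how these values differed between replicate numbers, so both are given as a description and no test of them is made. The samples were the tibialis anterior, a leg muscle made mostly of fast fibres, of male C57BL/6 mice aged 8 weeks. Innervated samples were muscles contralateral to the operated leg, and denervated samples were muscles taken 7 days after transection of the left sciatic nerve. Both groups therefore come from operated animals, and no sham-operated group was analysed here. Each group had 4 arrays, numbered 1 to 4, and the labels do not say whether equal numbers mark the same mouse or whether animals were pooled. Nor do they state that each array is a different mouse, so the p-values below describe only how these samples vary.

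As background, Tyrobp encodes DAP12, a small membrane adaptor that pairs with activating receptors such as TREM2 on macrophages and natural killer cells and passes their signal to the kinase SYK. Lgals3 encodes galectin-3, a sugar-binding lectin that macrophages make in large amounts and that was known as the macrophage antigen Mac-2. S100a8 and S100a9 encode the calgranulins, calcium-binding proteins that join as calprotectin, are abundant in neutrophils and early monocytes, and act on Toll-like receptor 4 once released. Tyrobp and Lgals3 are called macrophage-type and the calgranulins neutrophil-type below, although none of the 4 is made by a single cell type.

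The values are log2 intensities, so that a difference of 1 is a doubling, and levels are compared between arrays and not between genes. Array medians lay between 5.84 and 6.00. The list of 14 measured muscle fibre genes had a mean level of 10.55 to 11.57 on every array. Denervated array 3 stood apart. Its correlation with the other denervated arrays was 0.929 to 0.933 over genes, whereas the closest denervated arrays reached 0.987, and its SD over probe sets was 1.25, the lowest of the 8. It also had the highest mean level of B cell markers, at 6.53 against 5.15 to 5.23 on the other denervated arrays, and of T and NK cell markers, at 6.36 against 5.16 to 5.38. Results that rest on this array are given with and without number 3. In whole muscle, more cells of a type and more RNA per cell cannot be told apart.

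The macrophage-type genes were higher in denervated muscle at each of the 4 numbers, by similar amounts. The Tyrobp level was 8.04, 7.80, 7.79 and 7.62 on innervated arrays 1 to 4 and 9.53, 9.12, 9.71 and 9.12 on denervated arrays 1 to 4. All denervated values were higher than all innervated ones. The means were 7.81 ± 0.17 and 9.37 ± 0.30 (SD, n = 4), a difference of 1.56, or 2.94-fold. The change by number was 1.49, 1.31, 1.92 and 1.50, with an SD of 0.26. Without number 3 the mean change of Tyrobp was 1.44 ± 0.11 (SD, n = 3).

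Lgals3 had the narrowest innervated values of the 4 genes. Its level was 6.74, 6.72, 6.69 and 6.61 on innervated arrays 1 to 4 and 8.21, 7.77, 7.71 and 8.00 on denervated arrays 1 to 4. The groups did not overlap, with means of 6.69 ± 0.06 and 7.92 ± 0.23 (SD, n = 4). The change was 1.23, or 2.35-fold, and 1.47, 1.05, 1.02 and 1.39 by number. Denervated array 3, the highest for Tyrobp, was the lowest denervated array for Lgals3. Without number 3 the change of Lgals3 was 1.30 ± 0.22 (SD, n = 3).

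The neutrophil-type genes were dim in innervated muscle and differed widely between denervated arrays. The S100a8 level was 4.75, 5.47, 4.78 and 4.44 on innervated arrays 1 to 4, and on 3 of these it lay below the lower quartile of its own array. On denervated arrays 1 to 4 it was 5.11, 9.39, 8.98 and 7.45. Denervated array 1 fell within the innervated range, so the groups overlapped, while the other denervated arrays were far above it. The means were 4.86 ± 0.44 and 7.73 ± 1.94 (SD, n = 4), a difference of 2.87, or 7.32-fold. The changes at numbers 1 to 4 were 0.36, 3.92, 4.20 and 3.01, that is 1.28-fold, 15.1-fold, 18.3-fold and 8.05-fold. The innervated values lay near the dim end of the arrays and no detection values were used, so these are folds of intensity and not of mRNA.

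S100a9 did not follow S100a8 at every number. Its level was 5.29, 5.47, 4.81 and 4.94 on innervated arrays 1 to 4, with 2 of these below the lower quartile of their array. On denervated arrays 1 to 4 it was 5.11, 5.78, 9.09 and 6.73. Array 3 was high, array 4 was intermediate, and arrays 1 and 2 were close to the innervated values. The means were 5.13 ± 0.31 and 6.68 ± 1.74 (SD, n = 4), a difference of 1.55, or 2.93-fold. By number the change was -0.17, 0.30, 4.28 and 1.79, so S100a9 was higher in 3 of 4 comparisons. Without number 3 the mean change of S100a9 was 0.64 ± 1.02 (SD, n = 3), or 1.56-fold. Denervated array 2, the highest of all for S100a8, had the third highest denervated S100a9 level, and the difference between their changes there was 3.62. At number 3 the S100a8 change minus the S100a9 change was -0.08.

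**Figure D1:**
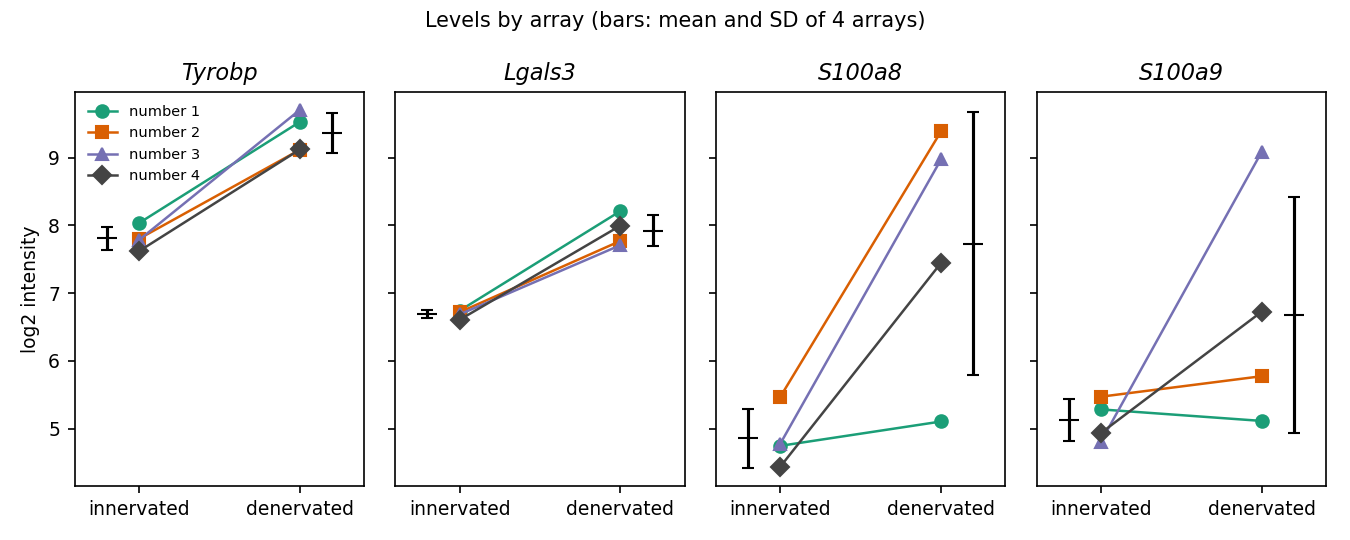
Level of each gene (vertical axis, log2 intensity) on the innervated and denervated array of each replicate number, joined by a line, with the mean and SD of 4 arrays as bars. Tyrobp and Lgals3 form near-parallel lines and separate groups, whereas denervated S100a8 runs from 5.11 to 9.39 and denervated S100a9 from 5.11 to 9.09.

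The calgranulin genes lie next to each other, in opposite orientation, within a cluster of S100 genes on chromosome 3, and their promoters are shown because these neighbours changed alike at number 3 and not at number 2. The windows are RefSeq's for GRCm38.p6, 250 bases before to 50 after the annotated start, 5′ to 3′ on the gene's own strand. They are chr3:90668821-90669120 on the plus strand for S100a8 and chr3:90695672-90695971 on the minus strand for S100a9. Capitals mark matches, on either strand, to the core bound by the myeloid factor PU.1 (GAGGAA), to a C/EBP motif (TTNNGNAA), to an AP-1 motif (TGANTCA) and to a TATA box (TATAAA).
S100a8: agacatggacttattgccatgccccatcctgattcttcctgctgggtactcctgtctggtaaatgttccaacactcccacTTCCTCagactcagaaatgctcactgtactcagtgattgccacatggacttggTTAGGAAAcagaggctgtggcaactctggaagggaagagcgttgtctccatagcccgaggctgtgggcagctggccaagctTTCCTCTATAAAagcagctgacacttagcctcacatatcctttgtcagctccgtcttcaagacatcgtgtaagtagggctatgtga
S100a9: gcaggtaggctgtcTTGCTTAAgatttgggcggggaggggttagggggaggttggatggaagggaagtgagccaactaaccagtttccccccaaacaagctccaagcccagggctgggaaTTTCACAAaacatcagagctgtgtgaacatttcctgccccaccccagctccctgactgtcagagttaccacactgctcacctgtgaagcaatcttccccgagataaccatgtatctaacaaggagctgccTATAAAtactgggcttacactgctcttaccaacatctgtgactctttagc

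Both windows hold 1 TATA box, which 13.6% of the 32851 windows in the table have. In S100a8 it begins 30 bases before the annotated start, and in S100a9 at base 1, the annotated start itself. The S100a8 window has 2 matches to the PU.1 core, present in 28.3% of windows, and the downstream match adjoins the TATA box. The S100a9 window has none. The C/EBP motif, present in 40.7% of windows, occurs once in S100a8 and at 2 places in S100a9, and the AP-1 motif, in 7.81% of windows, in neither. The Lgals3 window, which is 67% G and C against 50.0% and 51.3% for the calgranulins, holds no match to any of the 4 motifs. These are letter matches in a window of 300 bases, and no factor's binding was measured.

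Set against each other by number, the neutrophil-type genes varied more than the macrophage-type genes. The mean change of Tyrobp and Lgals3 was 1.48, 1.18, 1.47 and 1.45 at numbers 1 to 4 (SD 0.14). The mean change of S100a8 and S100a9 was 0.09, 2.11, 4.24 and 2.40 (SD 1.70). Calgranulin minus macrophage-type change was therefore -1.39 at number 1, 0.93 at number 2, 2.77 at number 3 and 0.95 at number 4, with a mean of 0.82 ± 1.70 (SD, n = 4). That mean was 0.17 without number 3 and 1.55 without number 1. Number 1, with almost no calgranulin change, had the largest Lgals3 change and a Tyrobp change of 1.49, so the higher macrophage-type level stood there beside calgranulins near their innervated level.

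**Figure D2:**
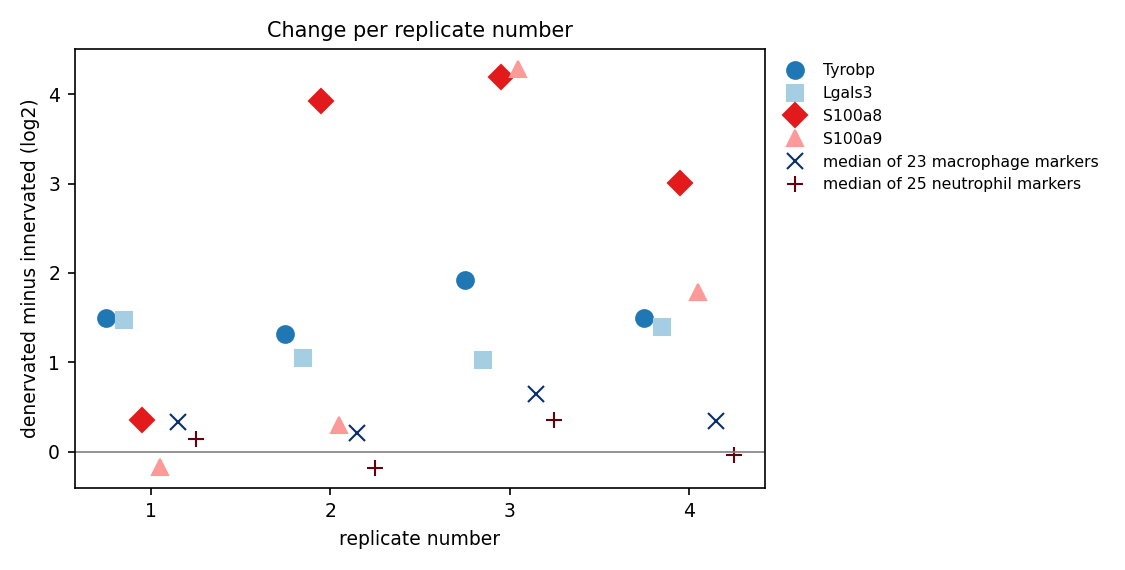
Denervated minus innervated log2 value at each replicate number for the 4 genes, with the median change of 23 other macrophage markers (crosses) and 25 other neutrophil markers (plus signs). Tyrobp and Lgals3 stay between 1.02 and 1.92, S100a8 runs from 0.36 to 4.20 and S100a9 from -0.17 to 4.28, and the neutrophil marker median stays between -0.18 and 0.35.

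Among all 14860 genes ranked by rise, S100a8 was 7th, Tyrobp 39th, S100a9 41st and Lgals3 85th. The SD of the 4 changes ranked S100a9 as 4th and S100a8 as 5th of all genes, at 2.00 and 1.75, whereas the median gene had 0.24. Tyrobp and Lgals3 lay near the middle, with a larger SD than 55.7% and 47.5% of genes. Above S100a9 in this ranking were Slbp, Polr2h and the lymphocyte surface gene Cd52, named after their values were seen. Cd52 changed by 0.68, -0.31, 4.62 and 0.37 at numbers 1 to 4, high at number 3 alone. Denervated arrays lay above all innervated ones in 2 of the 4 genes, Tyrobp and Lgals3, and in 5.32% of all genes. That contrast chose the 4 genes, so nothing is read from this count.

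**Figure D3:**
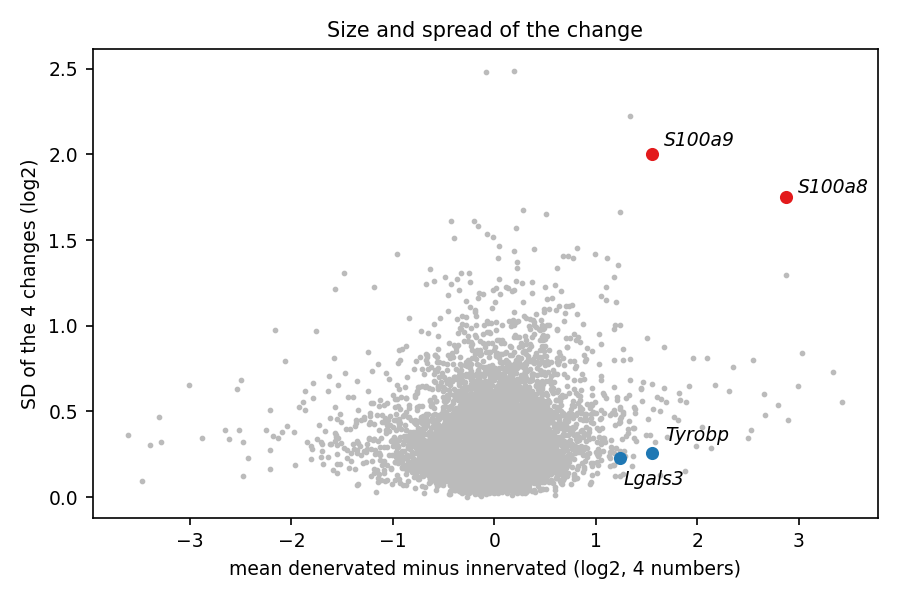
Mean denervated minus innervated log2 value (horizontal axis) and SD of the 4 changes (vertical axis) for 14860 genes in grey and the 4 myeloid genes in colour. Tyrobp (1.56, SD 0.26) and Lgals3 (1.23, SD 0.23) lie among genes of ordinary spread, S100a8 (2.87, SD 1.75) and S100a9 (1.55, SD 2.00) near the top.

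Genes with the most similar pattern were found by the root mean square difference over the 8 arrays, after each gene's own mean was subtracted. Closest to Tyrobp were the antiproliferative gene Btg1 (0.19), the class II antigen presentation gene H2-Ab1 (0.24) and the monocyte chemokine receptor gene Ccr2 (0.25), with Lgals3 in 8th place of 14859 (0.29). Closest to Lgals3 were Aebp2 (0.10), the potassium channel gene Kcnk5 (0.13) and Dnttip2 (0.13), with Tyrobp in 105th place. Without number 3, over 6 arrays, Btg1, H2-Ab1 and Ccr2 were 22nd, 44th and 69th for Tyrobp, and Lgals3 was 3rd (0.13). For Lgals3, Aebp2, Kcnk5 and Dnttip2 were then 10th, 22nd and 2nd, and Tyrobp 17th.

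The nearest genes to the calgranulins were less close. The difference is not scaled to each gene's spread, so a gene with large changes lies far from most genes. S100a8 came nearest to Ankrd1, a stretch-responsive ankyrin repeat gene, at 0.92, then to the glucosylceramide synthase gene Ugcg (1.00) and the calcium pump regulator Sln (1.15). S100a9 was 10th in that ranking, at 1.27, and 140th without number 3, where Ankrd1, Ugcg and Sln were 1st, 3rd and 9th. S100a9 itself was nearest to AI504432 (0.53), the leukocyte phosphatase gene Ptprc, which encodes CD45 (0.53), and the myeloid gene Ms4a6c (0.57). S100a8 was 4556th for S100a9, and 14830th without number 3. It was also 14716th for Tyrobp and 14823rd for Lgals3. These places depend on the size of its change, so no unlikeness of pattern is read from them. All of these S100a9 neighbours were highest on denervated array 3, and without number 3 they fell to places 1440, 379 and 455.

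Other monocyte and macrophage markers gave a readout apart from the 4 genes. Of 23 measured, 7 rose and none fell, by the limma test with Benjamini-Hochberg adjustment over all genes and a threshold of 0.05; 3.56% of all genes rose and 4.89% fell by it. Their median change was 0.43, against -0.01 over all genes. Cd68, a lysosomal protein of macrophages, was 6.43, 6.18, 6.43 and 6.20 on innervated arrays 1 to 4 and 7.49, 7.36, 7.59 and 7.55 on denervated ones, and rose by 1.19 (SE 0.10, limma adjusted p = 0.00104). Ccr2 rose by 1.14 (SE 0.13, adjusted p = 0.00248), in 4 of 4 comparisons. Gpnmb, Pf4, Mrc1, C1qc and C1qb also rose, by 0.52 to 0.90. They include the mannose receptor gene Mrc1 and complement genes C1qb and C1qc, typical of resident macrophages. Other genes of such cells in the list did not pass, namely Lyve1 (0.14), Folr2 (0.07) and Cd163 (-0.03). A rise of resident macrophages is therefore not read from these genes.

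Several genes used to define the lineage did not pass. Adgre1, which encodes the classical macrophage surface antigen of the mouse, had a change of 0.43 (SE 0.11, adjusted p = 0.0564), and passed with the dimmest 25% of genes left out (0.0332) and with array weights (0.0177). Csf1r, the receptor of macrophage growth factor, had 0.37 (adjusted p = 0.09) and the integrin gene Itgam 0.33 (0.107), and both passed with array weights (0.0319 and 0.0469). All 3 were higher in 4 of 4 comparisons. Array weights called 2200 of 14860 genes, in both directions, against 1255 without weights. Cx3cr1 had -0.03 and Cd163 -0.03. The list's mean level was 5.76 to 5.99 on innervated and 6.16 to 6.68 on denervated arrays, and its median change by number was 0.33, 0.21, 0.64 and 0.35. Without number 3, 7 rose again, 6 of them the same genes, where 5.8% of all genes rose and 5.26% fell; C1qc missed the threshold (0.0535) and the microglial and macrophage gene Aif1 passed (change 0.51, adjusted p = 0.0426). Without number 1 only Cd68 and Ccr2 rose, 2 of the 23, and 4 rose each without numbers 2 and 4. Calls over all genes, in both directions, also fell then, from 1255 of 14860 to 347, 651 and 486 without numbers 1, 2 and 4. In all of these settings Gpnmb (0.0718, 0.0575, 0.0725) and C1qb (0.107, 0.0773, 0.173) missed the threshold. C1qb also missed it without the replicate number in the model (0.0535). Mrc1 missed it without numbers 1 and 4 (0.0584 and 0.0708), C1qc without 1 and 2 (0.151 and 0.124) and Pf4 without 1 (0.0511).

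No other neutrophil marker passed as higher. Of 25 measured none rose by the limma test and 1 fell, where 3.56% of all genes rose and 4.89% fell. These counts are near the shares over all genes, so they do not set the list apart. The median change of the list was 0.06, and 1 gene was higher at an unadjusted p under 0.05. With array weights 1 passed, the collagenase gene Mmp8 (change 0.42, limma adjusted p = 0.044). Those weights called 2200 of 14860 genes, in both directions. The median change of these markers was 0.14, -0.18, 0.35 and -0.04 at numbers 1 to 4, where S100a8 was 1.28-fold, 15.1-fold, 18.3-fold and 8.05-fold higher. It was thus highest at number 3, where both calgranulins were highest relative to innervated muscle, and below 0 at numbers 2 and 4. Medians of other lists peaked at number 3 too, among them mast cell, basophil and eosinophil markers (0.13) and keratinocyte genes (0.18). Those of red blood cell, muscle fibre, endothelial, fibroblast and calgranulin receptor genes did not. A peak at number 3 is therefore not particular to neutrophil markers. Csf3r, the receptor of granulocyte growth factor, had a change of -0.07 (SE 0.10), the chemokine receptor gene Cxcr2 0.10 (SE 0.14), the granule protease gene Mmp9 -0.25 (SE 0.13) and the siderophore-binding gene Lcn2 0.28 (SE 0.14). Their adjusted p-values were 0.289 to 0.795, and Cxcr2 was at -0.039 with array weights. Ly6g, the usual neutrophil surface marker, is not among the genes analysed here.

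The mean level of the neutrophil list was 5.03 to 5.31 on innervated arrays and 5.09 to 5.14 on denervated arrays 1, 2 and 4, with 5.58 on denervated array 3. Of the 25 genes 5 lay below the lower quartile on all 8 arrays. Others were nearly as dim, such as Ltf, Ngp, Chil3 and Clec4e, below it on 4 innervated and 3 denervated arrays. A small rise of such genes could be missed. G0s2 fell by 0.60 (SE 0.12, adjusted p = 0.0227), but missed the threshold without numbers 1 and 4 (0.117 and 0.106). It encodes an inhibitor of adipose triglyceride lipase that muscle and fat also express.

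**Figure D4:**
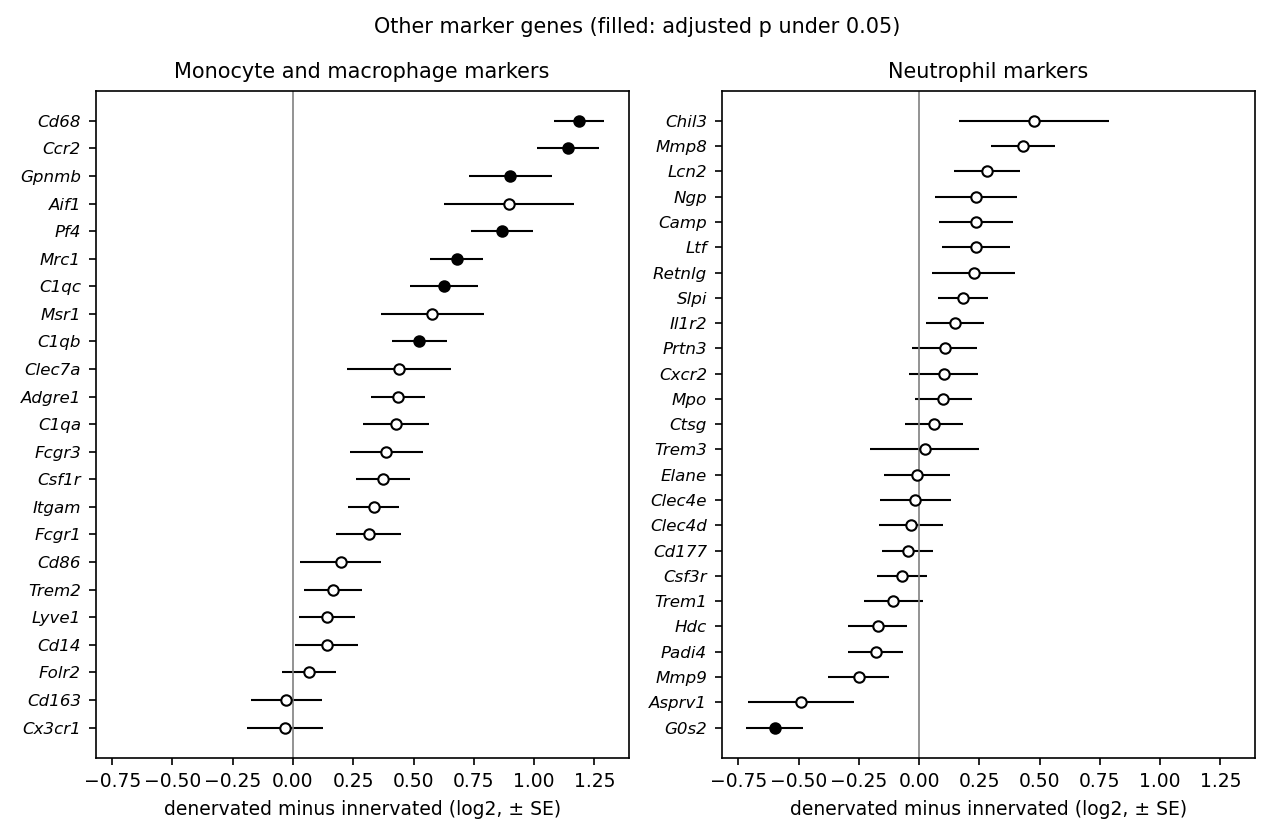
Mean denervated minus innervated log2 value with its SE for each measured monocyte and macrophage marker (left) and neutrophil marker (right), filled where the adjusted p was under 0.05. Of 23 macrophage markers 21 lie above 0 and 7 are filled there, and of 25 neutrophil markers 14 lie above 0 and none of them is filled.

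The list of pan-leukocyte genes had its highest mean level on denervated array 3. It also holds genes mainly of phagocytes, such as Cybb. Of 23 measured 3 rose and none fell, where 3.56% of all genes rose and 4.89% fell. Cd53, a tetraspanin, rose by 1.27 (SE 0.29, limma adjusted p = 0.0374). The phagocyte oxidase gene Cybb rose by 1.02 (SE 0.16, adjusted p = 0.0101) and the lysosomal gene Laptm5 by 0.84. The median change was 0.46, and 0.27, 0.04, 1.29 and 0.18 by number. Ptprc was 5.97, 6.10, 9.34 and 6.07 on denervated arrays 1 to 4, so that its change of 1.22 had an SE of 0.44 (adjusted p = 0.152), and without number 3 it was 0.54 with an adjusted p = 0.0207. Itgb2, the shared integrin chain, had a change of 0.20 and the myeloid factor gene Spi1, which encodes PU.1, -0.04, neither past the threshold. Without number 3, 5 members rose and the median was 0.17. Without number 1 none did and without number 4 only 1. Calls over all genes, in both directions, were 1643, 347 and 486 of 14860 without numbers 3, 1 and 4. Cd53 missed the threshold without the replicate number in the model (0.219), with it as a random effect (0.0774), after quantile normalization (0.0762) and without numbers 1 and 4 (0.0906 and 0.114), Cybb without number 1 (0.067), and Laptm5 in the same first 3 settings (0.158, 0.052 and 0.0754) and without numbers 1, 2 and 4 (0.157, 0.0532 and 0.0784).

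Lymphocyte markers were highest on denervated array 3 as a group. Over all genes 3.56% rose and 4.89% fell by limma. Of 8 measured B cell markers none passed by limma, none at an unadjusted p under 0.05 and none with array weights; their median change was 0.08, -0.16, 0.82 and 0.04 by number, and the B cell surface gene Ms4a1 had a difference of 2.99 at number 3 against -0.19 to -0.39 at the other numbers. Of 16 T and NK cell markers 1 rose and none fell, near the shares over all genes. The gene that rose was the cytotoxic granule gene Gzmb, by 1.51 (SE 0.31, limma adjusted p = 0.0249). Gzmb changed least at number 3 (0.56) and most at number 1 (2.60), and missed the threshold without numbers 1, 2 and 4 (0.0907, 0.0532 and 0.0912). The T cell receptor complex gene Cd3g had a difference of 2.79 at number 3. S100a9, at 4.28 there, was thus highest on the array with the highest lymphocyte marker levels, and the part of such cells in its change was not tested. The change of S100a8 was 3.92 at number 2, where neither lymphocyte list had a median above 0.

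**Figure D5:**
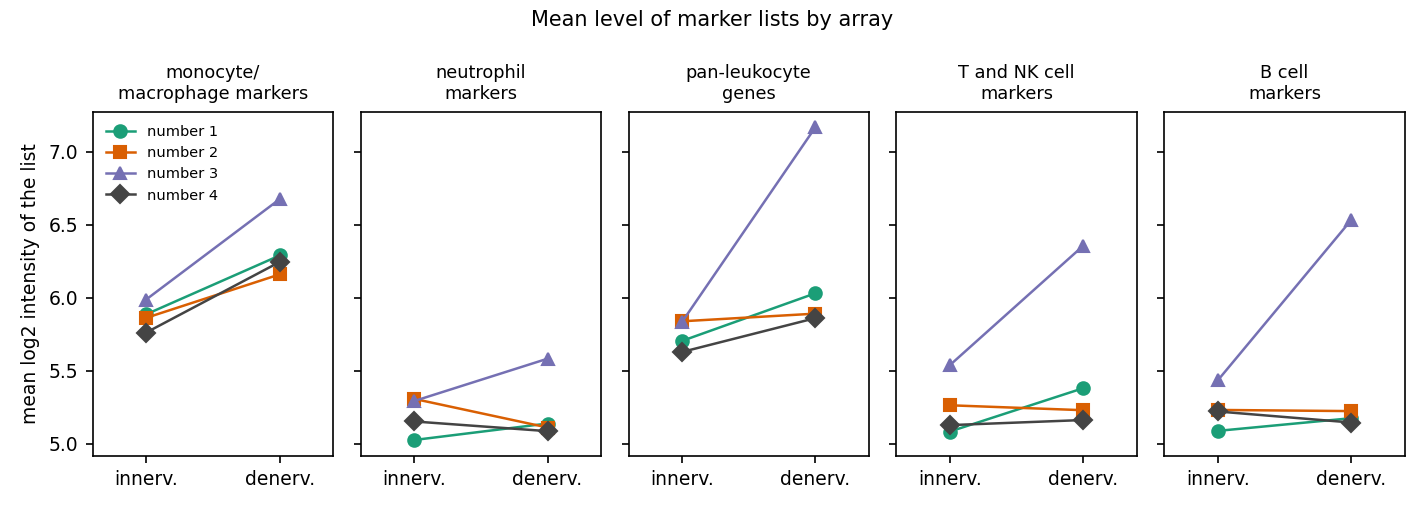
Mean log2 intensity (vertical axis) of 5 marker lists, without the 4 genes, on the innervated and denervated array of each replicate number. Denervated array 3 is the highest of its group in every panel, at 6.53 for B cell markers against 5.15 to 5.23, and the macrophage list is higher in denervated muscle at all 4 numbers.

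Among 29 measured partners and signalling genes of Tyrobp, 1 was called higher and none lower, a share near the 3.56% and 4.89% of all genes, and the median change was 0.13. At an unadjusted p under 0.05, 3 were higher and 1 lower. With a random block, the dimmest 25% left out or array weights 1 was called lower, the adaptor gene Card9. Calls over all genes, in both directions, were then 1463, 1534 and 2200, against 1255 in the model used above. The gene that rose was Fcer1g, the Fc receptor gamma chain, which like DAP12 is an adaptor with an activation motif for SYK. Its level was 6.22, 6.24, 6.21 and 6.12 on innervated and 7.36, 6.59, 7.62 and 6.80 on denervated arrays 1 to 4, a rise of 0.90 (SE 0.18, adjusted p = 0.0224). The groups did not overlap, but Fcer1g missed the threshold without number 1 (0.13) and without number 4 (0.0612), where no member rose. Over all genes 347 and 486 of 14860 were called in these settings, in both directions. Trem2, the DAP12-coupled lipid receptor, had a change of 0.16 (SE 0.12, adjusted p = 0.521) and Syk 0.24 (SE 0.13, adjusted p = 0.359). The related adaptor gene Hcst, which encodes DAP10, had 0.53 (adjusted p = 0.307), and 1.59 at number 3.

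Lists as short as those of the S100 and galectin relatives hold about 0 to 1 call at the shares over all genes, 3.56% higher and 4.89% lower. None of 12 other genes measured in the S100 list rose or fell by limma. They include S100pbp, a binding protein gene that is not itself an S100 gene. At an unadjusted p under 0.05, 1 was higher and 1 lower. With array weights, which called 2200 of 14860 genes in both directions, 1 was called higher, S100a13. S100a4, a fibroblast and leukocyte gene of the same cluster, had 0.07 (adjusted p = 0.915), and -0.20 without number 3 and -0.032 with array weights. S100a6 had -0.02 (adjusted p = 0.958), but 0.11 after quantile normalization, 0.0053 with array weights and 0.024 without number 2. S100a7a, the measured neighbour on the S100a8 side, had 0.06. Among 7 galectin genes and ligands, the broadly expressed Lgals8 alone rose, by 0.69 (SE 0.14, adjusted p = 0.0258), and it missed the threshold without the replicate number in the model (0.125) and without numbers 1, 2 and 4 (0.14, 0.0888 and 0.122). Lgals1 is not among the genes analysed here.

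Of 10 measured calgranulin receptors and relays 1 rose and 1 fell, where 3.56% of all genes rose and 4.89% fell. Tlr4, the receptor that calprotectin acts on, was 5.61, 5.55, 5.55 and 5.69 on innervated and 7.00, 7.88, 6.47 and 7.74 on denervated arrays 1 to 4, and rose by 1.68 (SE 0.22, adjusted p = 0.00511). Denervated array 3 was the lowest of its group for Tlr4, unlike for S100a9. Ager, the receptor for advanced glycation end products, had -0.12 (adjusted p = 0.636). Cd36, a fatty acid carrier of muscle and endothelium as well as a scavenger receptor, fell by 0.67 (SE 0.13, adjusted p = 0.0193), and missed the threshold without the replicate number in the model (0.0855) and without numbers 1 and 4 (0.0995 and 0.0755). The counts moved with the setting. Without number 3, 2 were called higher, with Rela, a subunit gene of NF-kappa B, added, and 2 without number 2, with the Tlr4 partner gene Ly96 added. With array weights 2 were higher and 3 lower, the receptor genes Bsg and Nptn among the latter. Those weights called 2200 of 14860 genes, in both directions. With a random block or the dimmest 25% left out 2 were lower, Nptn added.

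Of 28 myeloid chemokines, growth factors and adhesion genes only Il1a, an interleukin-1 gene, rose, by 0.49 (SE 0.11, adjusted p = 0.0309), and none fell, a share near that of all genes (3.56% higher). Il1a stayed dim, at 4.34 ± 0.43 and 4.82 ± 0.47 (SD, n = 4), and missed the threshold without the replicate number in the model (0.414), with it as a random effect (0.171) and without numbers 1, 2 and 4 (0.142, 0.0625 and 0.155). Without number 3 the chemokine genes Ccl5 (0.0345) and Ccl8 (0.0149) passed as well, which makes 3, where 5.8% of all genes rose. With array weights 4 were higher. With those weights, a random block or the dimmest 25% left out 1 was lower, the eosinophil attractant gene Ccl11. Array weights called 2200 of 14860 genes, in both directions. The neutrophil attractants Cxcl1, Cxcl2 and Cxcl5 had changes of -0.15, 0.15 and 0.38, and the monocyte attractant Ccl2 had 0.32, none past the threshold.

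The class II antigen presentation genes H2-Aa, H2-Ab1 and Cd74 were higher at all 4 numbers, as Tyrobp was. Of 10 measured dendritic cell and antigen presentation genes these 3 rose and none fell, where 3.56% of all genes rose and 4.89% fell. H2-Aa rose by 1.45 (SE 0.22, limma adjusted p = 0.00888) and H2-Ab1 by 1.25 (SE 0.18, adjusted p = 0.00622). Cd74, the class II invariant chain, rose by 0.84, while H2-DMa, also of class II, had no call. The median change of the list was 0.29, and 0.09 without number 3. Without number 3 H2-Aa rose by 1.16 and H2-Ab1 by 1.02 (0.00376 and 0.00186), while Cd74 missed the threshold without the replicate number in the model (0.0574), after quantile normalization (0.0701) and without numbers 1 and 4 (0.133 and 0.1).

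Markers of other cells that the muscle or its dissection could hold gave the following. Over all genes 3.56% rose and 4.89% fell, so lists this short can hold 1 call at these shares. None of 11 mast cell, basophil and eosinophil markers passed by limma, none at an unadjusted p under 0.05 and none with array weights. Of 5 measured red blood cell genes Alas2, of haem synthesis, fell by 0.66, with 4 without a call, and the list's mean level was 5.58 to 5.68 on innervated and 5.37 to 5.53 on denervated arrays. Of 11 keratinocyte genes, listed because skin also makes calgranulins, Trp63 rose, by 1.08 (SE 0.15, adjusted p = 0.00547); the list's mean level was highest on innervated array 4, at 6.22, the array with the lowest S100a8 level. Among denervated arrays it was highest on array 3, at 5.91 against 5.62, the array highest for S100a9 and next to highest for S100a8. The mast cell, basophil and eosinophil list was also highest there, at 5.39 against 4.93 to 5.06. So was the lower quartile over all probe sets, at 5.36 against 4.98 to 5.08. Trp63 was lowest there, at 7.09 against 7.77 to 8.14. The part of keratinocytes was not tested. Of 14 muscle fibre genes 5 fell, a larger share than the 4.89% of all genes. Pygm, the glycogen phosphorylase gene, at -1.35 and Myl1, a myosin light chain gene, were among them. Of 10 endothelial markers 2 fell, Kdr by 0.77 and Emcn by 0.72. Of 11 fibroblast markers Lum rose, by 0.60 (2 rose and 2 fell without number 3), and of 6 Schwann cell markers Pmp22 had a change of -1.63 and passed as lower. Of these genes only Pygm passed under every alternative; Alas2, Kdr and Lum missed the threshold without numbers 1, 2 and 4 (0.0554 to 0.11), Emcn without 1 and 4 (0.151 and 0.139), and Trp63, Myl1 and Pmp22 without 1 (0.0518, 0.0786 and 0.0521). Emcn, Myl1 and Pmp22 also missed it without the replicate number in the model (0.0679, 0.0519 and 0.0816), and Emcn after median centring (0.068).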

How the data were processed

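Total muscle RNA of 8 samples was amplified, labelled with biotin and hybridised, 1 array a sample. The deposited values are log2 intensities per probe set, which the authors obtained through GCOS and RMA (build mm9), per the submitters' processing notes. Not given in the sources used here are versions, probe set definition and filters. The table has no detection values, and with 4 arrays a group, array number sets the precision. Of 16755 probe sets 14996 had 1 symbol, 1019 several and 740 none; the brightest per gene left 14860 genes. No symbol differed from RefSeq (GRCm38.p6) through the Entrez ID.

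One limma model (version 3.58.1, R 4.3.3) covered all genes, with group and replicate number as terms because the study sets each denervated muscle against the contralateral one; it was tested on simulated data. The 4 genes and the 18 lists (325 genes, 253 measured) were chosen with earlier results of these data known, and the lists leave the 4 genes out. Genes named are the 4, a set list of lineage markers where measured (Ly6g and Lgals1 were not analysed here), the 2 largest calls per list and direction, and the 3 nearest in pattern. Gpnmb, Pf4, Mrc1, C1qb, C1qc, Laptm5, Aif1, Mmp8, Cd74 and other members named without a call were added after their values were seen. The alternatives were no replicate block, a random block, quantile normalization, median centring, the dimmest 25% left out, the mean of probe sets, array weights, and each number left out.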

Additional observations from a re-analysis of the deposited data

Results flagged for a closer look

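In each group of 4 arrays the gap of the outermost array to its neighbour was divided by the group's range, and 13 of 134 groups passed Dixon's 95% limit; chance flags about 1 in 20. None belonged to the 4 genes themselves. Of the 13, 10 were denervated array 3. It was high for Ptprc (9.34 against 5.97 to 6.10, ratio 0.960), Itgb2 (6.05 against 5.64 to 5.67, ratio 0.922), H2-Aa (8.76 against 7.49 to 7.54, ratio 0.967) and Aif1 (8.62 against 6.72 to 7.00, ratio 0.853), and low for Pygm (9.07 against 10.49 to 10.74, ratio 0.849). It was also high for the mean level of neutrophil markers (5.58 against 5.09 to 5.14, ratio 0.895), pan-leukocyte genes (7.17 against 5.86 to 6.03, ratio 0.870), B cell markers (ratio 0.944), antigen presentation genes (6.75 against 5.87 to 5.98, ratio 0.879) and keratinocyte genes (5.91 against 5.62, ratio 0.967). The others were Lcn2 on innervated array 3 (4.96 against 5.21 to 5.23, ratio 0.917), S100a6 on innervated array 1 (10.35 against 9.92 to 9.98, ratio 0.870) and Pf4 on denervated array 1 (7.49 against 7.02 to 7.06, ratio 0.910).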

How the results depend on the processing

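The changes of Tyrobp, Lgals3, S100a8 and S100a9, and the calgranulin minus macrophage-type change, kept their direction under all 11 alternatives, of which no block, the random block, the dimmest genes left out and the mean of probe sets leave these values as they are by construction. Tyrobp ranged from 1.44 to 1.64, Lgals3 from 1.15 to 1.30, S100a8 from 2.43 without number 3 to 3.71 without number 1, S100a9 from 0.64 without number 3 to 2.12 without number 1, and the calgranulin minus macrophage-type change from 0.17 without number 3 to 1.55 without number 1. The 1255 genes called became 800 without the replicate block and 2200 with array weights, and 347 to 1643 with 1 number left out. Macrophage markers called higher were 2 to 7 with 1 number left out. Neutrophil markers called higher were 1 with array weights and otherwise 0. Pan-leukocyte genes called higher were 1 without the block, and likewise with it as a random effect and after quantile normalization, and 0 to 5 with 1 number left out. Tyrobp partners called higher were 0 to 1 with 1 number left out. The direction turned for genes without a call: Cxcr2 (-0.039 with array weights), S100a4 (-0.032 with array weights, -0.20 to 0.24 with 1 number left out) and S100a6 (0.11 after quantile normalization, 0.0053 with array weights, -0.055 to 0.024 with 1 number left out). Of 28 named genes with a call 18 kept it without the block, 27 without number 3 and 6 under every alternative. Leaving out a number leaves fewer arrays; the cause of the other changes was not tested. As a check of pairing, same-numbered arrays correlated, after subtraction of group means, at 0.23, -0.03, 0.45 and 0.35, and 5 of 8 arrays correlated best with their own number, so the numbers may not mark pairs.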
